A study of Mus musculus with 15 samples.

Results

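The genes described here were 45 DNA repair genes, chosen by name for their part in reversing alkylated bases, in excising damaged bases or nucleotides, in unhooking crosslinks, and in mismatch and strand-break repair. They were found in a table of gene counts by matching the Ensembl identifiers of its rows to mouse symbols. All 45 had a row among the 53700 genes of the table, and all 45 were among the 22529 genes with enough reads to be tested. They fell into 9 roles. These were 3 direct reversal enzymes, 8 glycosylases, 6 core genes of base excision, 5 recognition and 6 incision genes of nucleotide excision, 6 crosslink and homologous recombination genes, 5 break sensors, 2 mismatch genes and 4 end joining genes. Another 91 repair genes of the same pathways were read beside them.

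The RNA came from whole dorsal skin of male SKH-1 hairless mice, taken 24 h after topical treatment under anaesthesia, and was sequenced in 15 libraries, 3 for each of 5 groups. Control mice received ethanol, the vehicle of every group. Phenylarsine oxide (PAO), a trivalent arsenical, was applied at 100 µg per mouse, which the labels equate to 25 µg/cm2, and 2-chloroethyl ethyl sulfide (CEES), an alkylating analog of sulfur mustard, at 2 mg per mouse or 500 µg/cm2. In 2 further groups, written SNX-5422+PAO and SNX-5422+CEES, the HSP90 inhibitor SNX-5422 was put on the injured area at 20 mg/kg with a delay of 15 min. SNX-5422 was never given alone in the groups analysed here, and each agent was given at 1 dose. Whether the 3 libraries of a group stand for 3 mice is not stated, so the p-values below measure the spread between these libraries, which may be technical in part. Codes in the sample titles run from 1 to 9 for Control, PAO and SNX-5422+PAO and from 13 to 18 for the CEES groups, and what the codes mark is not given. Any separate handling of the CEES groups cannot be told apart from the agent.

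Cells repair damaged bases by several routes. Some alkyl groups are taken off directly, by MGMT or by the ALKBH enzymes. Other small lesions are removed by base excision, in which a glycosylase frees the base, APEX1 cuts the strand, and DNA polymerase beta and ligase 3, held by the scaffold XRCC1, fill and seal the gap. Bulky adducts and ultraviolet photoproducts, the classical lesions of skin, are left to nucleotide excision, in which XPC, the DDB proteins or, at stalled transcription, ERCC6 find the damage and the nucleases ERCC1-ERCC4 and ERCC5 cut out a short stretch. Interstrand crosslinks need the Fanconi anaemia proteins and homologous recombination. CEES carries a single reactive chloroethyl arm, so it forms base adducts and not interstrand crosslinks. PAO binds neighbouring thiols and is not a DNA-alkylating agent.

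Gene counts summed to 16838000 to 28887000 reads per library. A member's level is given in CPM, its count relative to the TMM-scaled total of the library. It is not divided by gene length, so it compares a gene between libraries and not genes with each other. Mean CPM over the 15 libraries ran from 1.43 for Alkbh2 to 314 for Ddb1, with a median of 21.75, and error was widest for the lowest genes. The skin label was borne out by basal keratinocyte genes, of which all 8 listed were read in every group (summed 7531 to 11950 CPM). Muscle beneath the skin was read too. The 12 listed skeletal muscle genes took 6.59 to 10.8% of gene counts in Control, 8.22 to 8.75% in PAO, 9.86 to 11.5% in SNX-5422+PAO, 3.48 to 4.05% in CEES and 6.46 to 8.24% in SNX-5422+CEES libraries, with none of the 12 at 0. Mitochondrial ribosomal RNA took 5.72 to 9.43% in the Control and CEES groups together and 9.69 to 17.7% in the PAO groups. In whole tissue, a lower level cannot be told apart from fewer cells of a type that uses the gene, nor a higher level from more of them.

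**Figure D1:**
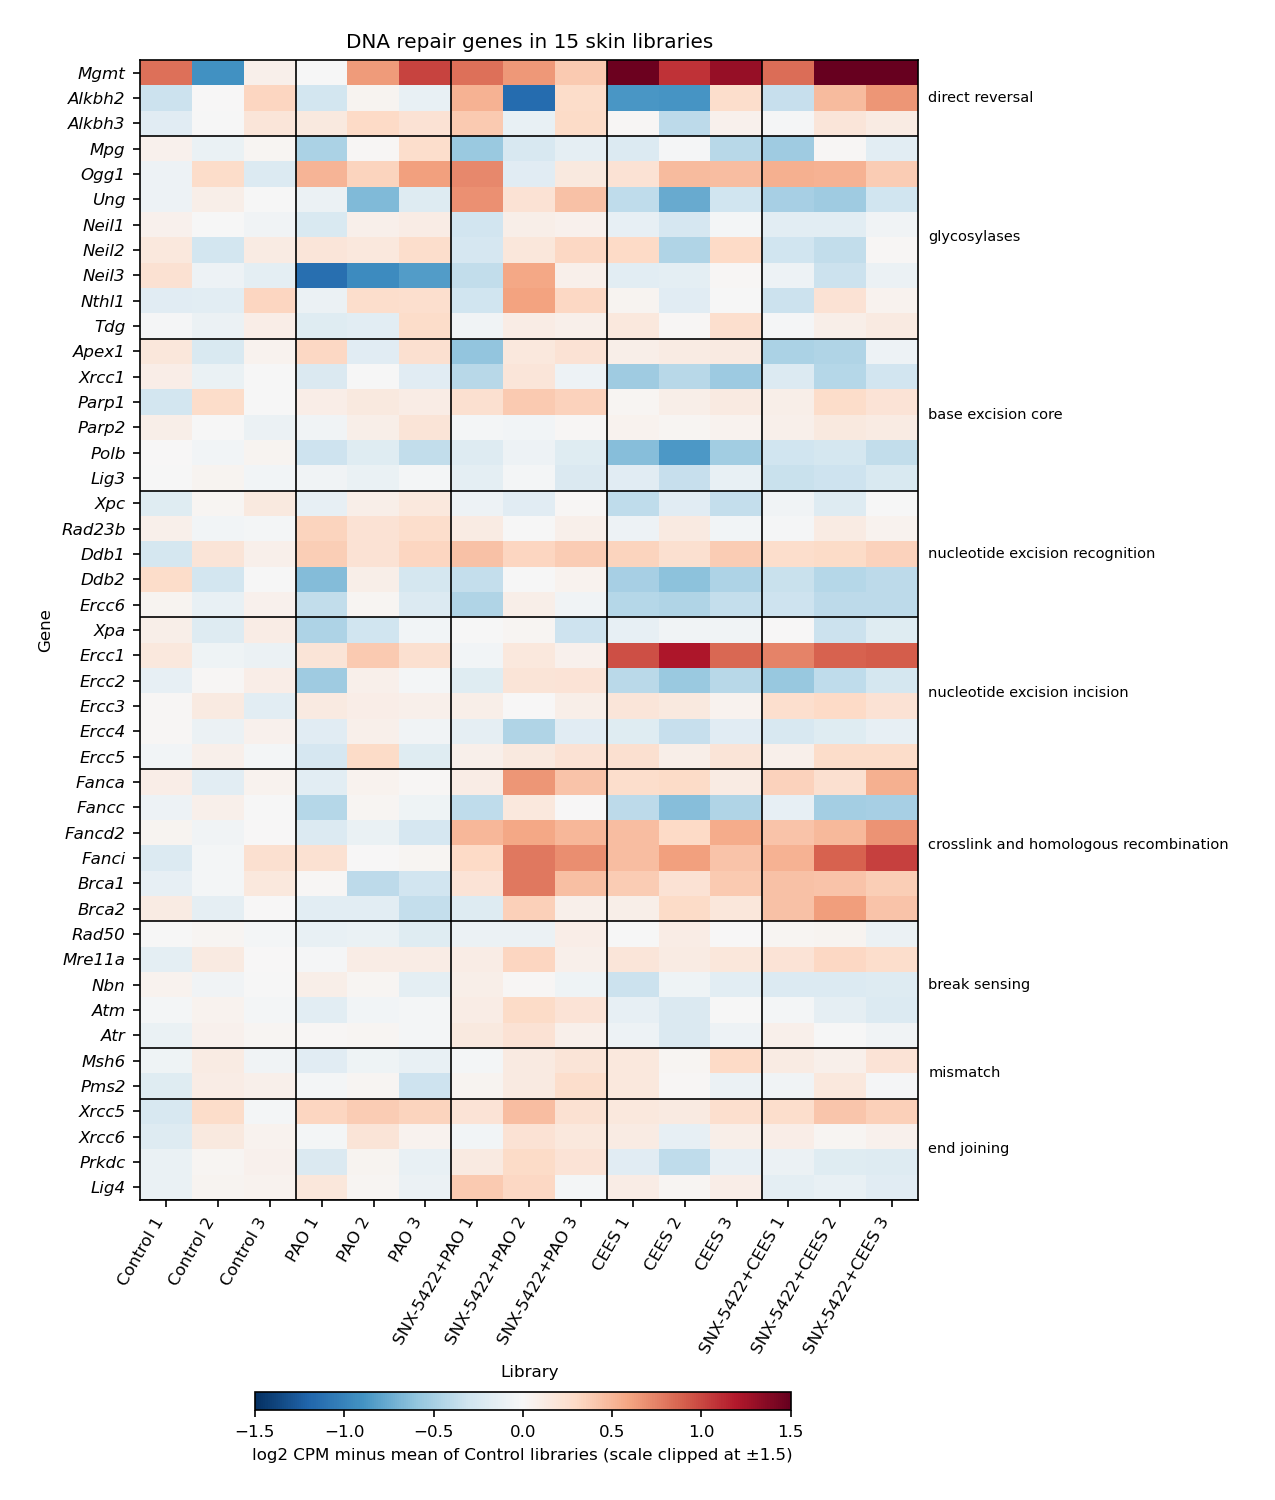
Heat map of the 45 repair genes (vertical axis, grouped by role) in the 15 libraries (horizontal axis). Colour is log2 CPM minus the mean of the 3 Control libraries, clipped at 1.5. Ercc1 and Mgmt stand out in red in the CEES libraries, Polb in blue there, and Neil3 in blue in the PAO libraries, while most rows stay pale.

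The first comparison asked which repair genes differed 24 h after the alkylating agent. Most were not called. In CEES skin 13 of the 45 passed the test, 5 higher and 8 lower, where the edgeR test called 33.9% of all genes (17.8% higher and 16.2% lower). The 28.9% of members called was no more than that background, and their median log2 fold change was 0.02 against -0.04 for all genes tested. Ercc1, the non-catalytic subunit of the ERCC1-ERCC4 nuclease, rose by about 1 log2 unit, and the base excision genes Polb and Xrcc1 fell. The CPM of 19 of the 45 did not overlap between the groups, as for 47.5% of all genes. Of the 32 not called, 31 had a 95% interval of the log2 fold change that lay within a 2-fold change either way, the exception being Alkbh2. Without CEES 1 the count of 13 fell to 6, and 28.1% of all genes were called. Beside these changes the muscle genes listed above were lower after CEES in 9 of 12 (median log2 fold change -1.18). With that list as a covariate 8 members were called, 3 higher and 5 lower, against 29.7% of all genes. Muscle shares did not overlap between Control and CEES libraries, so that fit can hardly tell muscle from CEES. Other cell type lists moved too. Macrophage markers were higher in 12 of 12 (median 1.81), neutrophil in 9 of 11 (2.68) and fibroblast in 7 of 8 (1.96). Endothelial markers were higher in 7 of 8 (1.58) and adipocyte markers in 5 of 8 (0.82). Basal keratinocyte markers were lower in 5 and higher in 2 of 8 (-0.44). Suprabasal keratinocyte markers were lower in 3 of 10 (-0.62), T cell markers in 3 of 7 (-0.92) and pancreas genes in 11 of 11 (-6.91). Summed levels in Control and CEES libraries were 357 to 437 and 1644 to 2511 CPM for macrophage, 75.8 to 78.8 and 272 to 467 CPM for neutrophil, 3131 to 4272 and 13760 to 16370 CPM for fibroblast, 96.3 to 130.7 and 290.3 to 403 CPM for endothelial, and 885 to 2615 and 9.05 to 13.2 CPM for pancreas genes, with Prss1 of the last at 0 in CEES. Pancreas genes were low in SNX-5422+CEES libraries too, at 24.85 to 147 CPM. They were not low in PAO (994 to 1605 CPM) or SNX-5422+PAO libraries (1600 to 2423 CPM), and 0 of 11 were called after PAO. Their level thus followed the codes in the sample titles as well as the agent. The part of all these lists in the members' changes was not tested.

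Ercc1 (ENSMUSG00000003549) read 17.1, 14.6 and 14.4 CPM in Control and 30.2, 35.6 and 27.8 CPM in CEES libraries. The lowest CEES library was well above the highest Control library. The log2 fold change was 1.02 ± 0.11 (SE; edgeR adjusted p = 4.72e-06), and the call held in each of 26 alternative fits, with values from 0.88 to 1.14. The other incision genes did not follow Ercc1. Ercc4, which codes for its partner in the nuclease and was picked out after its values were seen, was not called (log2 fold change -0.23, adjusted p = 0.0881), and Ercc2, a helicase of TFIIH that opens the DNA, fell by 0.47 (adjusted p = 0.0274). Ercc2 read 13.8, 15.2 and 16.1 CPM in Control and 11.3, 10.2 and 11.2 CPM in CEES libraries, groups that did not overlap. Xpa, Ercc3 and Ercc5 were not called. Ercc1 shares 3.4% of its exon bases with Cd3eap on the opposite strand in the GENCODE annotation at hand, and whether the authors counted by strand is not given.

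Of the 6 core base excision genes 2 fell and none rose. Polb (ENSMUSG00000031536), the gap-filling polymerase, read 61.3, 59.2 and 62.6 CPM in Control and 39.2, 33.6 and 42.4 CPM in CEES libraries, so that no CEES library came near a Control library. It fell by 0.67 ± 0.09 on the log2 scale (edgeR adjusted p = 2.26e-05). Xrcc1 (ENSMUSG00000051768), the scaffold of single-strand break repair, read 34.3, 29.9 and 31.7 CPM in Control and 22.1, 23.9 and 21.9 CPM in CEES libraries and fell by 0.50 ± 0.12 (adjusted p = 0.00523). Both calls held in all 26 alternatives, with ranges of -0.75 to -0.55 for Polb and -0.86 to -0.39 for Xrcc1. The abasic site nuclease Apex1, the break-binding Parp1 and Parp2 and the ligase Lig3 were not called, and the group's median was -0.08. Of the 8 glycosylases only Ung, which removes uracil, was called. It read 9.52, 10.7 and 10.02 CPM in Control and 7.69, 5.96 and 8.16 CPM in CEES libraries and fell by 0.48 (adjusted p = 0.0384). Ung lost its call without any of Control 1, Control 2, Control 3, PAO 3, SNX-5422+PAO 3, CEES 1 or CEES 2 (adjusted p = 0.0537 to 0.161).

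Among the genes that recognise bulky damage, 3 fell and 1 rose. Ercc6, which couples repair to transcription, read 74.7, 67.6 and 76.4 CPM in Control and 53.9, 53.4 and 56.8 CPM in CEES libraries and fell by 0.41 ± 0.12 (edgeR adjusted p = 0.0135). Ddb2, the damage-binding subunit for photoproducts, read 13.2, 8.97 and 10.8 CPM in Control and 7.65, 7.06 and 7.85 CPM in CEES libraries and fell by 0.55 ± 0.18 (adjusted p = 0.0266). Its partner Ddb1, a subunit of many ubiquitin ligases, moved the other way. Ddb1 read 216.6, 298 and 274 CPM in Control and 327, 309 and 339 CPM in CEES libraries, and its log2 fold change was 0.31 (adjusted p = 0.0224). Xpc, the general damage sensor, fell by 0.31 (adjusted p = 0.0431), and Rad23b, its stabilising partner, was not called. These calls were less firm than those of Ercc1 and Polb. Ercc6 lost its call without Control 3 (adjusted p = 0.0537). Ddb1 lost it without Control 1, CEES 1 or CEES 3 (0.0583 to 0.105), Ddb2 without Control 1, Control 3 or any CEES library (0.0516 to 0.128), and Ercc2 without Control 2, Control 3 or any CEES library (0.0531 to 0.0993). Xpc lost it without any of 10 libraries, and kept it without Control 1, PAO 1, CEES 2, SNX-5422+CEES 1 or SNX-5422+CEES 2.

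**Figure D2:**
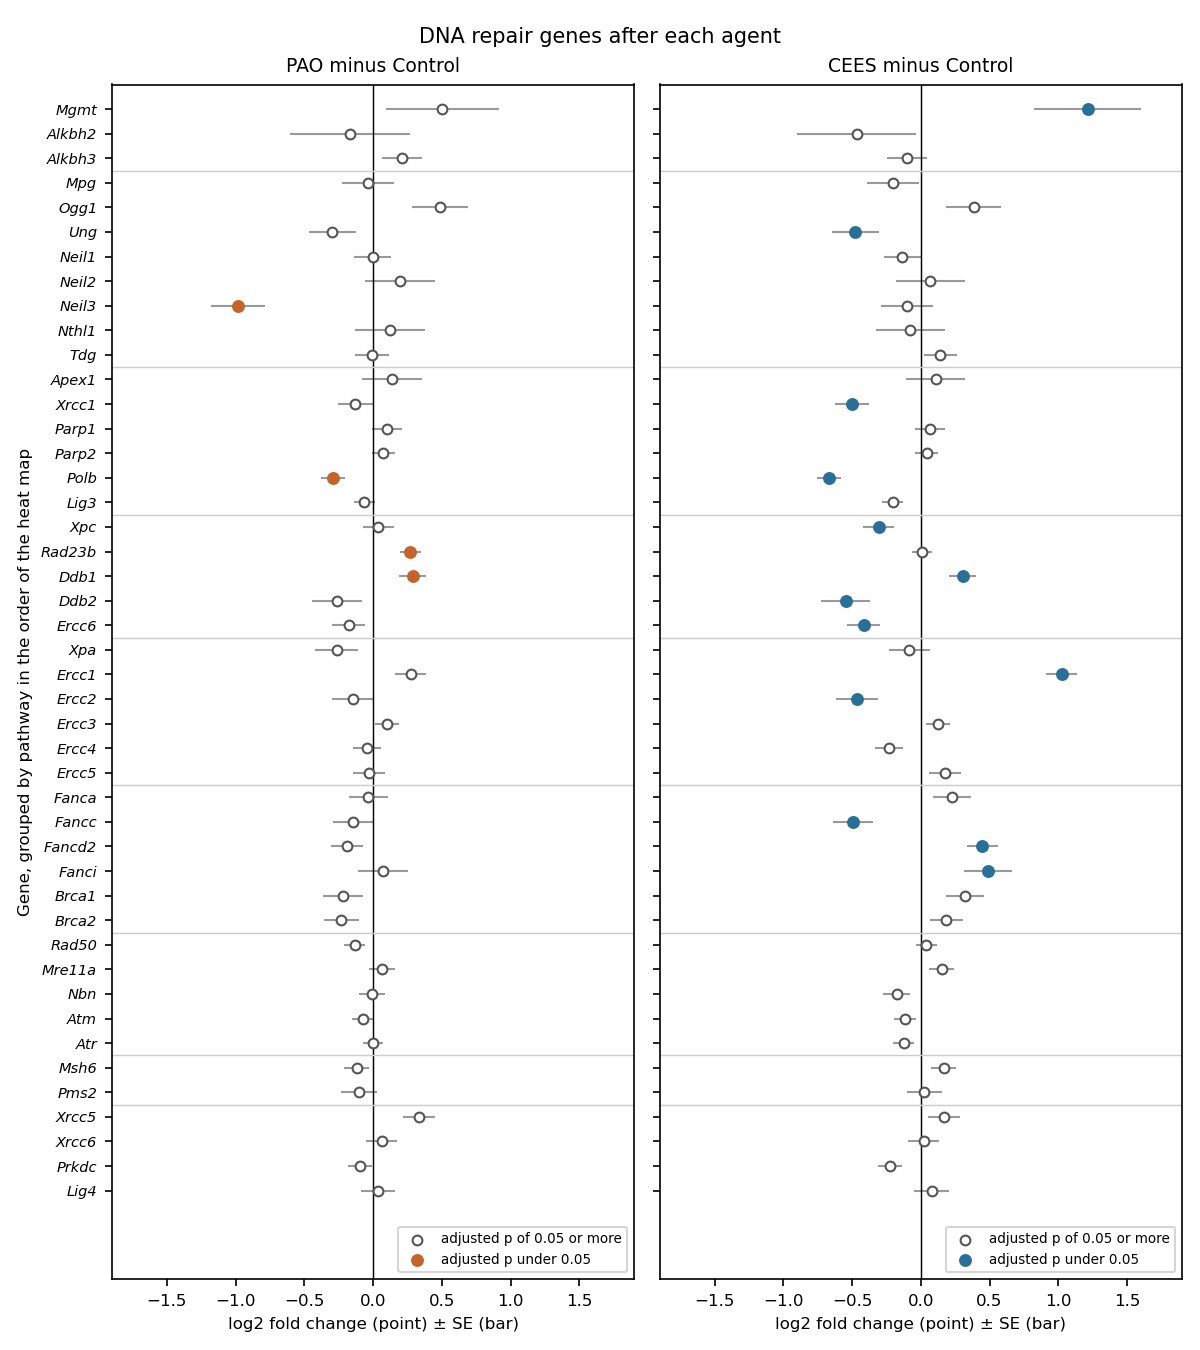
Log2 fold change (horizontal axis, points) with its SE (bars) of each repair gene (vertical axis, by role) for PAO minus Control on the left and CEES minus Control on the right. Filled points had an edgeR adjusted p under 0.05. There are 4 filled points on the left and 13 on the right, with Ercc1 at 1.02 and Polb at -0.67 after CEES and Neil3 at -0.98 after PAO.

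The crosslink and homologous recombination genes leaned upward after CEES, with a median log2 fold change of 0.27 over the 6. Fancd2 (ENSMUSG00000034023), which is ubiquitinated and clamped onto DNA at crosslinks and stalled forks, read 8.83, 8.23 and 8.60 CPM in Control and 11.8, 10.6 and 12.6 CPM in CEES libraries. All CEES libraries were above all Control libraries, and the log2 fold change was 0.45 ± 0.11 (edgeR adjusted p = 0.00627). Fanci, its partner in that clamp, read 4.28, 4.88 and 5.87 CPM in Control and 6.86, 7.67 and 6.69 CPM in CEES libraries, with a log2 fold change of 0.49 (adjusted p = 0.0407). Fancc, a member of the upstream core complex that attaches the ubiquitin, went the other way. It read 34.5, 38.4 and 36.2 CPM in Control and 27.6, 23.4 and 26.6 CPM in CEES libraries and fell by 0.49 ± 0.15 (adjusted p = 0.0154). Fanca, Brca1 and Brca2 were not called. Fancc lost its call without Control 2 or CEES 2 (adjusted p = 0.0539 and 0.0659), and Fanci without Control 1, Control 2 or any CEES library (0.0608 to 0.148). Genes of dividing cells moved with Fancd2 and Fanci. Of 20 listed proliferation genes, 9 were higher after CEES, and their summed level was 857 to 905 CPM in Control and 937 to 1004 CPM in CEES libraries, with none of the 20 at 0. With the mean of that list as a covariate, neither was called. The log2 fold change of Fancd2 was then 0.39 ± 0.16 (adjusted p = 0.0973), close to its value without the covariate, and that of Fanci 0.23 ± 0.23 (0.516). Less the Control mean, the list mean ran from -0.07 to 0.09 in Control and from 0.19 to 0.37 in CEES libraries. These did not overlap, so that fit can hardly tell proliferation from CEES. The part of dividing cells in these calls was not tested. Fancd2 kept its call without each library in turn.

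The promoter stretches of 3 members of this group are shown because each of them was called higher in SNX-5422+CEES skin against Control, described below, and because genes used in S phase often carry words read by E2F factors. They are the 200 bases before the RefSeq start, read along the gene's strand in build GRCm38.p6, with a matched word in capitals.
Brca1 (chr11:101551956-101552155, minus strand): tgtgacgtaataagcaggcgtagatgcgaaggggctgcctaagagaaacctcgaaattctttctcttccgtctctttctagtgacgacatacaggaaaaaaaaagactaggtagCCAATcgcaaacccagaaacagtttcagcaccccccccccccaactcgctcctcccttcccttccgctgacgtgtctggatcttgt
Brca2 (chr5:150522421-150522620, plus strand): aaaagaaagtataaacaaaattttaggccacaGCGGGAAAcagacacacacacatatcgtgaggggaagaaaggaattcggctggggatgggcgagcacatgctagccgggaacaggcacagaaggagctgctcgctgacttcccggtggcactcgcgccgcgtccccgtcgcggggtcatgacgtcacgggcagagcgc
Fanci (chr7:79392138-79392337, plus strand): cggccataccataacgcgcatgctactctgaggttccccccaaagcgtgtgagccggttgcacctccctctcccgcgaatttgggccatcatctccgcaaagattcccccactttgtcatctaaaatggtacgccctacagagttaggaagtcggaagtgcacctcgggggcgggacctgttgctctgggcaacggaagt
The words searched, on both strands of the 250 bases before the start, were TTTCCCGC, TTTGGCGC, TTTCGCGC and TTTGCCGC for E2F, TTTGAA for the CHR element of late cell cycle genes, and CCAAT. Each word was matched on its own, and no E2F word contains CCAAT or TTTGAA. In Brca2 the capitals mark TTTCCCGC on the other strand, 168 bases before the start, and in Brca1 they mark CCAAT, 86 bases before it. Fanci held none of these words. Of the 36 members with a window, 3 held an E2F word (Nthl1, Brca2 and Xrcc6), or 8.33% against 2.16% of 27025 genes. CCAAT stood in 19 of the 36, or 52.8% against 37.5%, and TTTGAA in 1, or 2.78% against 18.3%. Fancd2 and 8 other members had no entry.

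The 4 genes that act directly on small alkyl lesions were followed in every comparison, whether called or not. Whether they act on the adducts of CEES was not tested. Mgmt (ENSMUSG00000054612), which takes alkyl groups off guanine and is used up in doing so, was the only one called. It was barely expressed. Control libraries held 33, 10 and 31 reads (1.77, 0.465 and 1.00 CPM), CEES libraries 64, 52 and 56 reads (2.80, 2.12 and 2.50 CPM), and SNX-5422+CEES libraries 43, 94 and 75 reads (1.77, 3.68 and 3.10 CPM). The CEES libraries lay above the Control libraries, whereas 1 SNX-5422+CEES library fell level with the highest Control library. PAO libraries read 0.945, 1.54 and 2.02 CPM and SNX-5422+PAO libraries 1.77, 1.54 and 1.28 CPM, both within reach of Control. The log2 fold change was 1.21 ± 0.39 for CEES minus Control (edgeR adjusted p = 0.0242) and 1.42 ± 0.39 for SNX-5422+CEES minus Control (adjusted p = 0.0145). It was 0.50 for PAO and 0.53 for SNX-5422+PAO against Control, 0.03 and 0.21 for the inhibitor after PAO and after CEES, 0.71 for CEES minus PAO and 0.18 for the difference between the inhibitor effects, and none of these passed. The first call ended without Control 2, Control 3, CEES 1 or CEES 3 (adjusted p = 0.0538 to 0.0806), and the second without Control 3 or SNX-5422+CEES 2 (0.0596 and 0.0734).

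Mpg, the glycosylase for alkylated purines, was flat. It read 10.2, 9.11 and 9.99 CPM in Control, 7.00, 9.88 and 11.7 CPM in PAO, 6.61, 8.26 and 8.90 CPM in SNX-5422+PAO, 8.43, 9.67 and 7.31 CPM in CEES and 6.72, 9.90 and 8.73 CPM in SNX-5422+CEES libraries. Its log2 fold changes against Control were -0.04, -0.31, -0.20 and -0.21 in that order, and -0.27, -0.0041 and -0.17 for the inhibitor after PAO, the inhibitor after CEES and CEES minus PAO. The difference between the inhibitor effects was 0.27. The 2 listed dioxygenases, which strip methyl groups oxidatively, were not called either. Alkbh3 read 14.4, 16.2 and 18.5 CPM in Control, 18.1, 20.1 and 18.9 CPM in PAO, 21.4, 15.0 and 19.9 CPM in SNX-5422+PAO, 16.6, 12.4 and 17.0 CPM in CEES and 16.1, 18.4 and 17.7 CPM in SNX-5422+CEES libraries. Its log2 fold changes against Control were 0.21, 0.19, -0.10 and 0.09, those of the inhibitor -0.02 after PAO and 0.19 after CEES, that of CEES minus PAO -0.31, and the difference between the inhibitor effects 0.20. Alkbh2 had only 10 to 56 reads a library. It read 1.12, 1.44 and 1.82 CPM in Control, 1.17, 1.48 and 1.32 CPM in PAO, 2.11, 0.594 and 1.75 CPM in SNX-5422+PAO, 0.743, 0.734 and 1.74 CPM in CEES and 1.11, 2.03 and 2.32 CPM in SNX-5422+CEES libraries. Its log2 fold changes against Control were -0.17, 0.01, -0.47 and 0.30, and those of the inhibitor, of CEES minus PAO and of the difference between the inhibitor effects were 0.17, 0.77, -0.30 and 0.60. The intervals for Alkbh2 were wide, from -1.38 to 0.45 for CEES minus Control, so a 2-fold fall lay within what this depth allows. Mpg shares 35.7% and Alkbh2 29.5% of their exon bases with a gene on the opposite strand, Nprl3 and Usp30, which bears on their counts if strand was not used.

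After the arsenical fewer repair genes moved. In PAO skin 4 of the 45 passed, 2 higher and 2 lower, or 8.89% against 20.4% of all genes (11.9% higher and 8.58% lower), and the median was -0.03. The groups did not overlap for 12 of the 45, against 36.0% of all genes. Neil3 (ENSMUSG00000039396), a glycosylase for oxidised bases that is made mostly in dividing cells and also unhooks some crosslinks, was the clearest. It read 13.1, 10.6 and 10.1 CPM in Control and 5.06, 5.77 and 6.23 CPM in PAO libraries, with a wide gap between the groups. It fell by 0.98 ± 0.20 on the log2 scale (edgeR adjusted p = 0.00215) and kept its call in all 26 alternatives, between -1.28 and -0.81. The other glycosylases for oxidised bases, Ogg1, Neil1, Neil2 and Nthl1, were not called. Polb read 49.0, 53.7 and 47.4 CPM in PAO libraries, all below Control, and fell by 0.29 ± 0.09 (adjusted p = 0.0266). Rad23b read 148, 137 and 138 CPM in Control and 178, 163 and 169 CPM in PAO libraries, with a log2 fold change of 0.27 ± 0.08 (adjusted p = 0.0176). Ddb1 read 336, 302 and 325 CPM in PAO libraries, all just above the Control range, with a log2 fold change of 0.29 (adjusted p = 0.0459).

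Only Neil3 was sturdy among these. Polb lost its call without Control 1, Control 3, PAO 1 or PAO 3 (edgeR adjusted p = 0.0652 to 0.102), and Rad23b without Control 2, Control 3, PAO 1 or PAO 3 (0.0501 to 0.0987). Ddb1 lost it without all but Control 2, CEES 2 and SNX-5422+CEES 1 (0.0535 to 0.204). The count of 4 fell to 1 without Control 3, 1 being the fewest over the libraries left out. Without Control 3, 13.6% of all genes were called. The scaling of the libraries changed which members passed, while the 4 called here kept their sign in every alternative. Scaling to total counts moved the median of all genes by -0.20 in this comparison, by 0.12 in CEES minus Control, by -0.34 in SNX-5422+PAO minus Control and by 0.32 in CEES minus PAO. Under it 9 members were called lower and 0 higher after PAO (4342 and 1434 of all 22529 genes). After CEES 2 were lower and 10 higher (2409 and 5049 of all genes). With upper-quartile scaling 2 were lower and 0 higher after PAO (2497 and 2183 of all genes). After CEES 12 were then lower and 3 higher (4556 and 3507 of all genes). With DESeq2 size factors 2 were lower and 1 higher after PAO (2010 and 2592 of all genes). Proliferation genes were lower after PAO in 4 of 20, and none was higher. Their summed level was 677 to 794 CPM in PAO libraries, under the Control range, and their part in the fall of Neil3 was not tested beyond the covariate fit, in which Neil3 kept its call. Larger shifts were seen in cell type lists after PAO. Macrophage markers were higher in 11 of 12 (median 1.55), neutrophil higher in 9 and lower in 1 of 11 (2.29), and fibroblast higher in 5 of 8 (0.65). Suprabasal keratinocyte markers were lower in 10 of 10 (-1.83), T cell in 4 of 7 (-1.36) and adipocyte in 5 of 8 (-0.83). Basal keratinocyte markers were higher in 2 and lower in 1 of 8 (-0.07). The part of these lists in the members' changes was not tested. No member of the break sensing, mismatch, end joining, incision or crosslink groups was called after PAO.

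**Figure D3:**
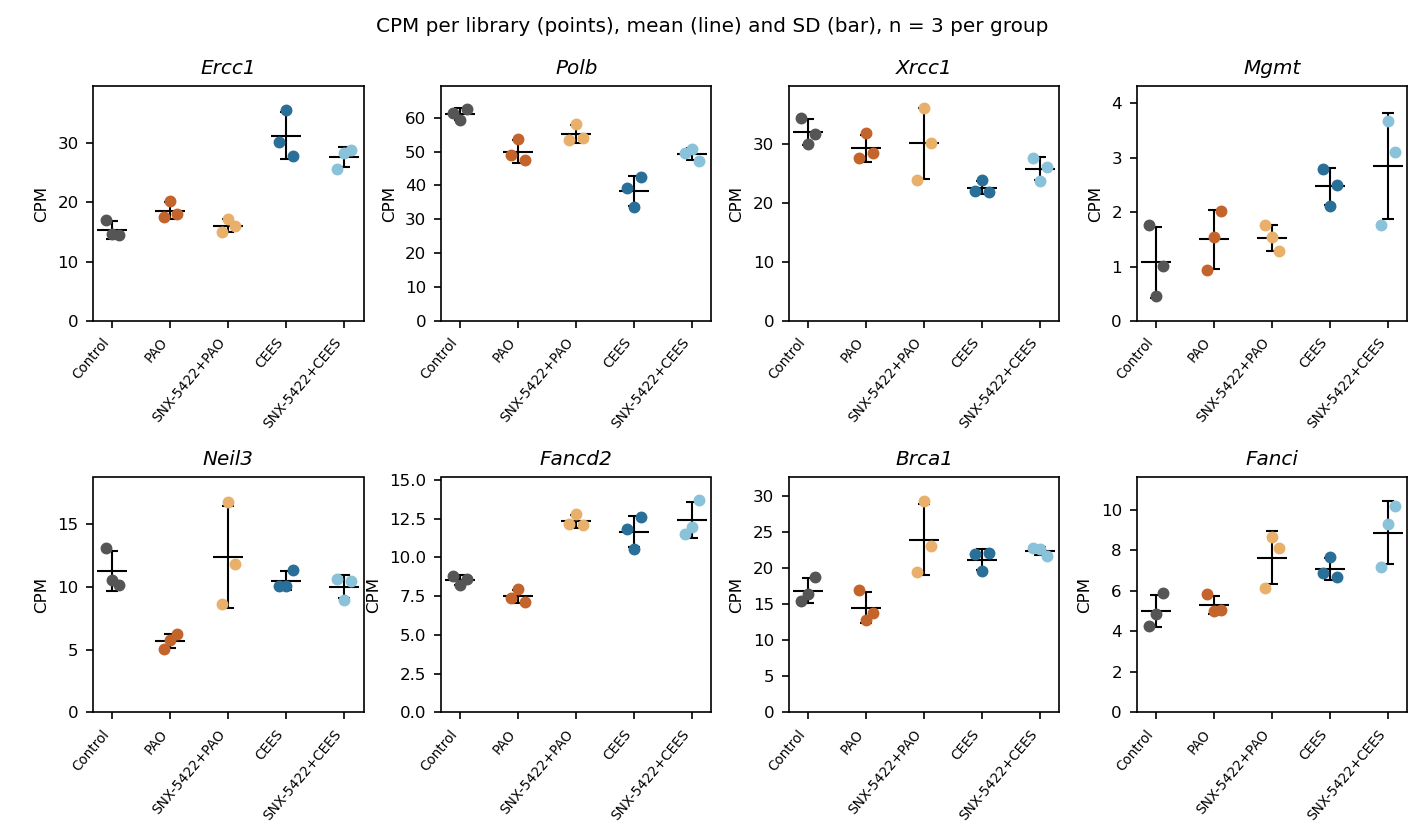
CPM in each library (points), with the group mean (line) and SD (bar, n = 3), for 8 repair genes in the 5 groups (horizontal axis). Ercc1 separates the CEES groups from the rest, Neil3 is lowest in PAO at 5.06 to 6.23 CPM, and Fancd2 is above 10 CPM in SNX-5422+PAO and in both CEES groups and under 9 CPM in Control and PAO.

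Set directly against each other at their single doses, the agents differed in 10 of the 45 genes, 6 higher and 4 lower in CEES than in PAO skin, where 18.9% of all genes differed (9.86% higher and 9.02% lower). The groups did not overlap for 20 members, against 37.1% of all genes. Ercc1 was higher in CEES (log2 difference 0.75, edgeR adjusted p = 0.000276), as were Fancd2 (0.64, 0.00122), Neil3 (0.88, 0.00495), Brca1 (0.54, 0.014), Brca2 (0.41, 0.0271) and the mismatch gene Msh6 (0.28, 0.0368). Polb was lower by 0.38 (adjusted p = 0.00589), and Rad23b, Xpc and Xrcc1 were lower by 0.26, 0.34 and 0.37 (0.0224 to 0.0478). Proliferation genes were higher in 13 of 20. With their mean as a covariate 1 member, Ercc1, was called, against 5.18% of all genes. Fancd2 was then at 0.55 ± 0.20 (adjusted p = 0.127), near its value without the covariate, and Brca1 at 0.021 ± 0.18. The mean of that list did not overlap between PAO and CEES libraries, so that fit can hardly tell proliferation from the agents. Under total counts 20 members were higher and 0 lower, where 7067 of all 22529 genes were higher and 796 lower. With DESeq2 size factors 6 were higher and 2 lower (2359 and 1825 of all genes). Ercc1, Fancd2, Neil3 and Polb kept their call without each library in turn. Brca1 lost it without PAO 2 or PAO 3, Brca2 without PAO 3, CEES 2 or CEES 3, Msh6 without Control 3, PAO 1, PAO 3, CEES 1 or CEES 3, and Rad23b without PAO 1, PAO 3, SNX-5422+PAO 3, CEES 1 or CEES 3 (adjusted p = 0.0506 to 0.171). Xpc kept it only without Control 1, Control 3, PAO 1, CEES 2, SNX-5422+CEES 1 or SNX-5422+CEES 2, and Xrcc1 only without SNX-5422+PAO 1, SNX-5422+PAO 2 or SNX-5422+CEES 1. The count of 10 fell to 4 without PAO 3, where 12.2% of all genes were called. Muscle genes were lower in CEES in 9 of 12.

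The next comparison asked what the HSP90 inhibitor did to skin given PAO. In SNX-5422+PAO against PAO skin 4 of the 45 were called, all higher, where 5.96% of all genes passed (2.57% higher and 3.39% lower). The groups did not overlap for 15 members, against 24.0% of all genes. Neil3 was higher than in PAO skin, at 8.66, 16.7 and 11.8 CPM, with a log2 fold change of 1.12 ± 0.20 (edgeR adjusted p = 0.00384). All 3 libraries were above all PAO libraries and around the Control range. Fancd2 read 7.39, 7.95 and 7.14 CPM in PAO and 12.1, 12.8 and 12.1 CPM in SNX-5422+PAO libraries, tight groups far apart, with a log2 fold change of 0.72 ± 0.12 (adjusted p = 0.00228). Brca1, which steers breaks into homologous recombination, read 17.0, 12.8 and 13.8 CPM in PAO and 19.5, 29.3 and 23.1 CPM in SNX-5422+PAO libraries (0.72 ± 0.14, adjusted p = 0.00795). Ung read 9.45, 6.35 and 8.81 CPM in PAO and 16.3, 11.8 and 13.7 CPM in SNX-5422+PAO libraries (0.76 ± 0.17, adjusted p = 0.0143). Brca1 and Brca2 were not in the rule for values by library and were added after their values were seen.

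**Figure D4:**
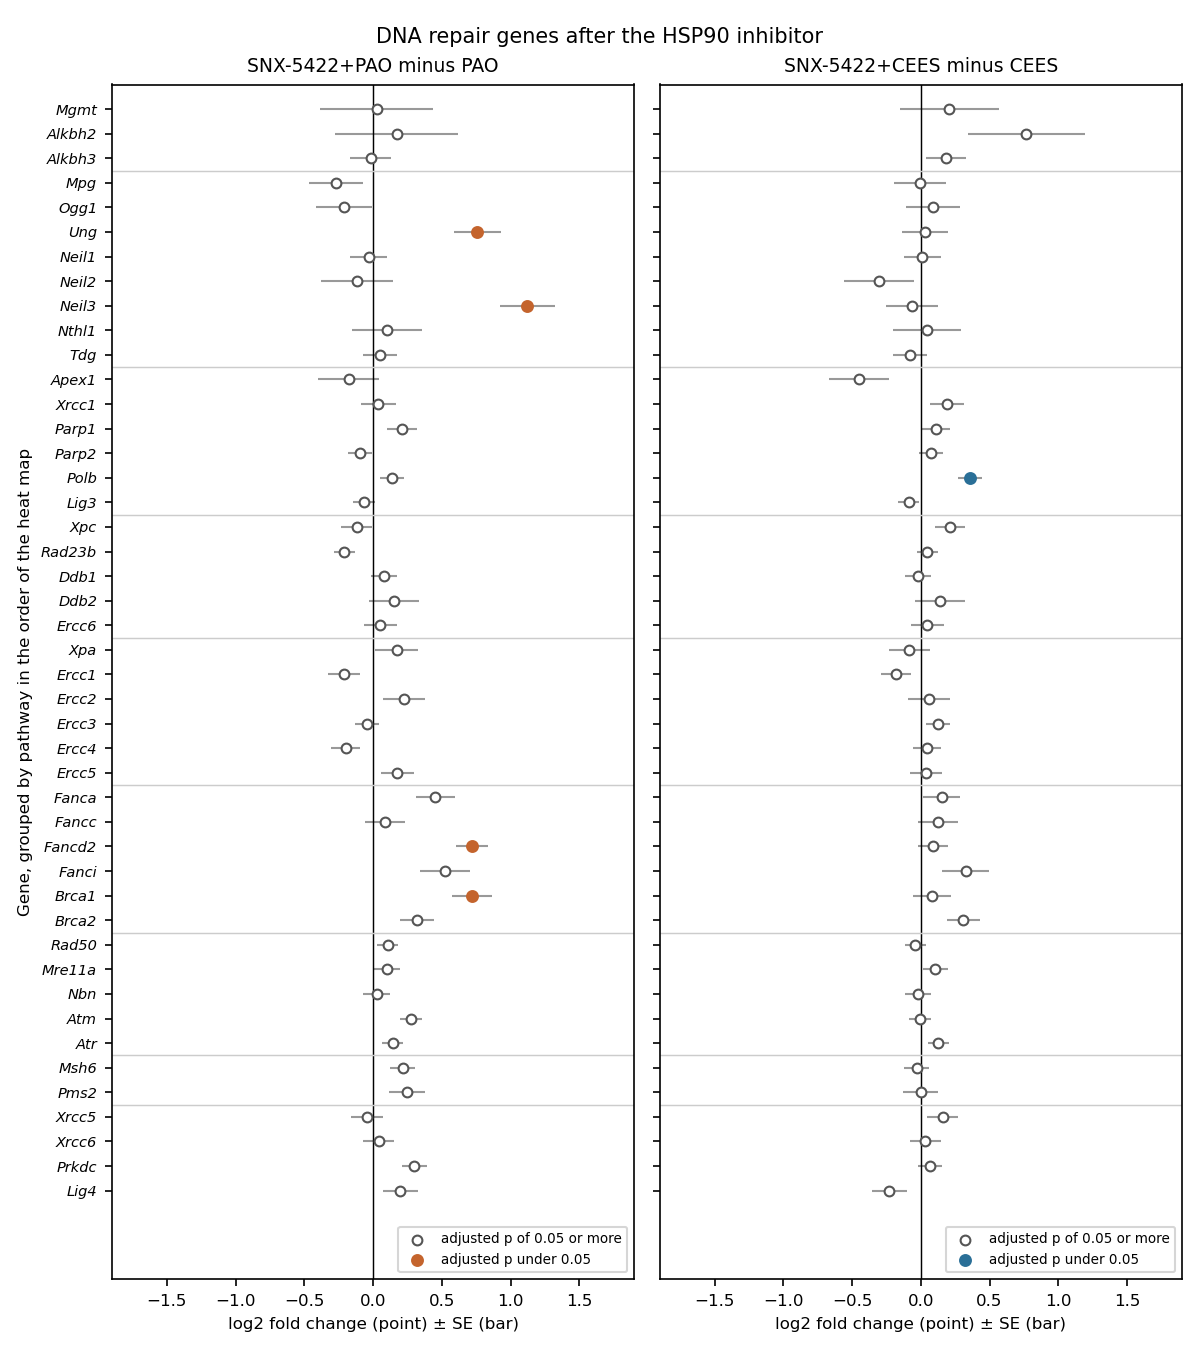
Log2 fold change (horizontal axis, points) with its SE (bars) of each repair gene (vertical axis, by role) for SNX-5422+PAO minus PAO on the left and SNX-5422+CEES minus CEES on the right. Filled points had an edgeR adjusted p under 0.05. Neil3, Ung, Brca1 and Fancd2 are filled on the left, between 0.72 and 1.12, and Polb alone on the right, at 0.36.

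Fancd2, Brca1 and Neil3 are used mostly in dividing cells, and genes of dividing cells moved with the 4 called. Of the 20 proliferation genes 14 were higher and none lower with the inhibitor, with a median log2 fold change of 0.53, and their summed level was 677 to 794 CPM in PAO and 921 to 1255 CPM in SNX-5422+PAO libraries. With that list as a covariate the count of members called was 0, and the count over all genes fell from 1343 to 25. Fancd2 was then at 0.62 ± 0.22, Ung at 0.75 ± 0.31, Neil3 at 0.43 ± 0.33 and Brca1 at 0.086 ± 0.20 (edgeR adjusted p = 0.515 to 0.952 for the 4). Errors were wider than without the covariate. Less the Control mean, the list mean ran from -0.25 to -0.06 in PAO and from 0.14 to 0.59 in SNX-5422+PAO libraries. These did not overlap, so that fit can hardly tell proliferation from the inhibitor. The part of dividing cells in the 4 calls was not tested. With the skeletal muscle list as a covariate 1 member, Neil3, was called, against 4.19% of all genes. Of the 12 muscle genes 4 were higher. Muscle shares did not overlap between PAO and SNX-5422+PAO libraries, so that fit can hardly tell muscle from the inhibitor. Neutrophil markers were lower in 5 of 11 (median log2 fold change -1.45) and macrophage markers in 3 of 12 (-0.54). Fibroblast markers were lower in 2 of 8 (-0.68) and suprabasal keratinocyte markers in 1 of 10 (-0.31), and none of these was higher. The endothelial (-0.73), T cell (-0.39), basal keratinocyte (-0.0039) and pancreas (0.51) lists had 0 called. The part of these lists was not tested. The 3 SNX-5422+PAO libraries stood in the same order in the crosslink group and in the proliferation list, as did the SNX-5422+CEES libraries. The Control, PAO and CEES libraries did not. What lay behind the shared order was not tested. The mean log2 CPM of the 6 crosslink genes minus the Control mean was 0.09, 0.56 and 0.36 in the SNX-5422+PAO libraries, and that of the proliferation list was 0.14, 0.59 and 0.44. Neil3 and Fancd2 kept their call without each library in turn. Brca1 lost it without SNX-5422+PAO 2 (edgeR adjusted p = 0.0516), and Ung without PAO 2, SNX-5422+PAO 1 or SNX-5422+PAO 3 (0.0514 to 0.0569). The count of 4 became 7 without SNX-5422+PAO 1, where 6.24% of all genes were called. Under total counts 3 were called higher and 1 lower, against 335 higher and 1568 lower of all genes. The damage recognition, incision, break sensing, mismatch and end joining groups had no call.

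**Figure D5:**
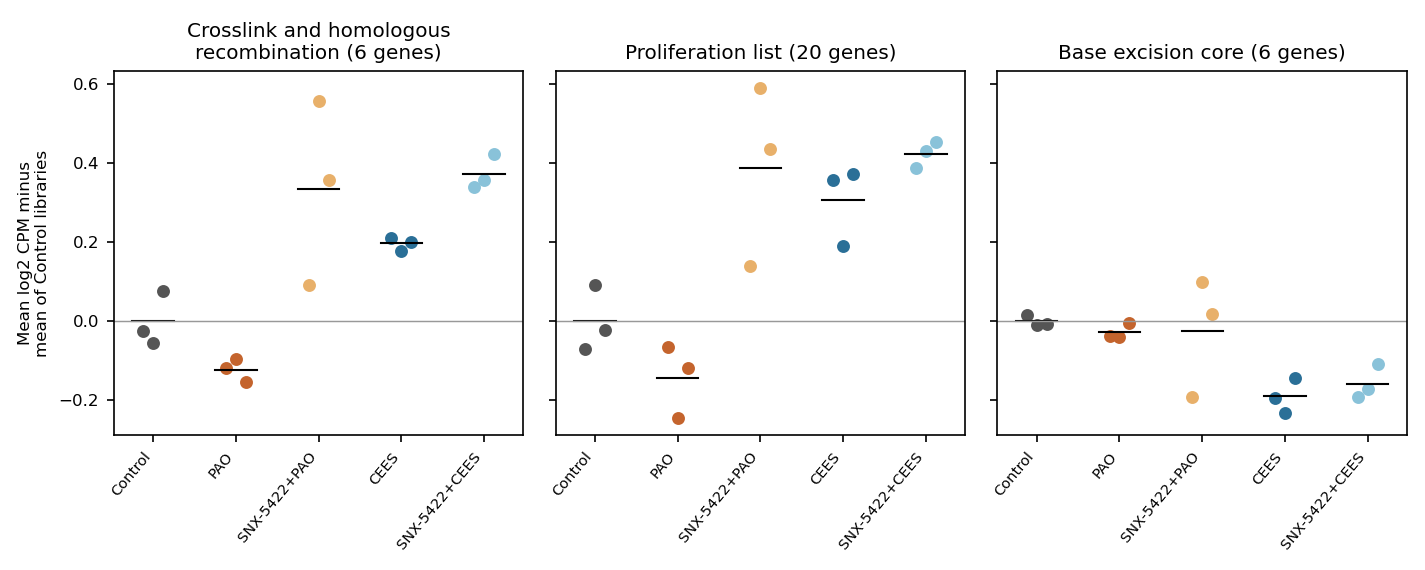
Mean log2 CPM minus the mean of the Control libraries (vertical axis) in each library (points) with the group mean (line), for the 6 crosslink and homologous recombination genes, the 20 proliferation genes and the 6 core base excision genes. The first and second panels show the same order of groups, with PAO lowest, and in the third the means of both CEES groups are lowest.

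After CEES the inhibitor changed the members little. In SNX-5422+CEES against CEES skin 1 of the 45 was called, where 7.00% of all genes passed (3.54% higher and 3.46% lower), and 10 members did not overlap, against 26.0% of all genes. Polb read 39.2, 33.6 and 42.4 CPM in CEES and 49.7, 50.7 and 47.3 CPM in SNX-5422+CEES libraries, a log2 fold change of 0.36 ± 0.09 (edgeR adjusted p = 0.0194). Every SNX-5422+CEES library lay between the CEES and the Control libraries. The call ended without CEES 1, CEES 2 or SNX-5422+CEES 2 (adjusted p = 0.0509 to 0.0883). Muscle genes were higher in 10 of 12, and Polb was not called with that list as a covariate. Muscle shares did not overlap, at 3.48 to 4.05% in CEES and 6.46 to 8.24% in SNX-5422+CEES libraries. That fit can therefore hardly tell muscle from the inhibitor. Summed CPM in CEES and SNX-5422+CEES libraries was 1644 to 2511 and 927 to 1366 for macrophage and 272 to 467 and 103 to 235 for neutrophil markers. It was 13760 to 16370 and 9317 to 12560 for fibroblast and 7531 to 8760 and 10270 to 11950 for basal keratinocyte markers. Endothelial, suprabasal keratinocyte, T cell and adipocyte sums overlapped. The part of these lists in the Polb call was not tested. Over 25 alternative fits the log2 fold change of Polb ran from 0.247 to 0.435. Ercc1 read 25.6, 28.4 and 28.7 CPM with the inhibitor, and its log2 fold change of -0.18 did not pass. Of the 44 members not called, 43 had a 95% interval within 2-fold either way, Alkbh2 being the exception. Proliferation genes had 0 of 20 called by edgeR here, also 0 lower, with a median of 0.13.

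Whether the inhibitor acted differently after the 2 agents was tested as the difference of its effects. None of the 45 was called by edgeR, where 0.737% of all genes passed (0.550% higher and 0.186% lower). Of the 45, 7 had an unadjusted p under 0.05, and the DESeq2 Wald test called 2, against 2.79% of all genes. The largest difference was that of Neil3, at -1.19 ± 0.27 with an adjusted p of 0.0561, followed by Fancd2 at -0.63 (0.081), Brca1 at -0.64 (0.147) and Ung at -0.73 (0.17). The 95% interval of the Neil3 difference was -1.77 to -0.61. So the calls made after PAO and not after CEES are not shown to differ by this test, and for Mgmt, Alkbh2, Ung, Neil3 and Brca1 the interval reached beyond a 2-fold difference.

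Against vehicle skin, both inhibitor groups had higher crosslink genes, 4 of 6 in each. These comparisons share their Control libraries with those above. In SNX-5422+PAO skin 5 of the 45 were higher and none lower, against 19.3% of all genes (10.7% higher and 8.66% lower), and 13 did not overlap, against 34.7%. They were Fancd2 (log2 fold change 0.53, edgeR adjusted p = 0.00482), Ddb1 (0.37, 0.0151), Brca1 (0.50, 0.0209), Fanci (0.60, 0.027) and Fanca, of the Fanconi core complex (0.42, 0.0454). Fanci read 6.15, 8.67 and 8.09 CPM there, all above Control. In SNX-5422+CEES skin 12 were called, 9 higher and 3 lower, against 22.3% of all genes (13.1% higher and 9.25% lower), and 23 did not overlap, against 37.7%. Ercc1 was raised by 0.85 (adjusted p = 7.69e-05), Fanci by 0.82 (0.0031), Fancd2 by 0.54 (0.00296) and Brca2, which acts in homologous recombination, by 0.50 (0.00782). Brca2 read 33.6, 28.2 and 31.1 CPM in Control and 41.8, 47.6 and 41.5 CPM in SNX-5422+CEES libraries, and Fanci 7.17, 9.27 and 10.2 CPM in the latter. Lig3, Polb and Ercc6 were lower, by 0.29, 0.31 and 0.37 (adjusted p = 0.0122, 0.0162 and 0.0375). Ddb1, Brca1, Ercc3, which is the other TFIIH helicase, and Xrcc5, which codes for Ku80 of end joining, were higher by 0.25 to 0.40 with adjusted p between 0.0445 and 0.0495.

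The crosslink calls against Control again moved with dividing-cell genes. Of the 20 proliferation genes 11 were higher in each inhibitor group, summing to 921 to 1255 CPM in SNX-5422+PAO and 1064 to 1103 CPM in SNX-5422+CEES libraries. With that list as a covariate 0 members were called in SNX-5422+PAO (4.97% of all genes). In SNX-5422+CEES 2 were called, Ercc1 and Lig3 (8.32% of all genes). Fancd2 was then at 0.45 ± 0.18 and 0.45 ± 0.19, little below its values without the covariate, and Brca1 at 0.026 ± 0.17 and -0.091 ± 0.17. The list mean of neither inhibitor group overlapped that of Control, so these fits can hardly tell proliferation from treatment. The part of dividing cells was not tested. Fancd2 kept its call without each library in turn in both, as did Ercc1, Fanci, Brca2 and Lig3 in SNX-5422+CEES. In SNX-5422+PAO, Ddb1 lost it without Control 1, SNX-5422+PAO 1 or SNX-5422+PAO 3, Fanci and Brca1 without Control 1, Control 2, SNX-5422+PAO 2 or SNX-5422+PAO 3, and Fanca kept it only without SNX-5422+PAO 1, CEES 2 or SNX-5422+CEES 2 (edgeR adjusted p = 0.0502 to 0.236). In SNX-5422+CEES, Polb lost it without Control 3 or SNX-5422+CEES 3 (0.0653 and 0.0743), and Ercc6 without Control 1, Control 3, CEES 1 or any SNX-5422+CEES library (0.0502 to 0.123). Brca1 kept it only without PAO 1, SNX-5422+PAO 1, SNX-5422+PAO 2 or CEES 2, Ddb1 without Control 2 or CEES 2, Xrcc5 without Control 2 or SNX-5422+CEES 1, and Ercc3 without Control 2. The count of 5 fell to 1 without Control 1 (10.6% of all genes), and that of 12 to 5 without Control 3 (15% of all genes). Under total counts 14 members were lower and 0 higher in SNX-5422+PAO, where 6855 of all 22529 genes were lower and 646 higher. With upper-quartile scaling 1 was lower and 3 higher there (2414 and 1698 of all genes). Under that scaling 8 were lower and 5 higher in SNX-5422+CEES (2861 and 2501 of all genes).

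Break sensors and most mismatch and end joining genes had no call. Rad50, Mre11a and Nbn, which form the complex that binds broken ends, and the kinases Atm and Atr that signal from breaks and bare single strands, were not called in any of the 8 comparisons. Their log2 fold changes lay between -0.18 and 0.15 after CEES and between -0.13 and 0.06 after PAO. Pms2, of the mismatch endonuclease, and Xrcc6, Prkdc and Lig4, of end joining, were not called either. The same held for the glycosylases Ogg1, Neil1, Neil2, Nthl1 and Tdg, for Apex1, Parp1 and Parp2, and for the incision genes Xpa, Ercc4 and Ercc5.

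The other 91 repair genes of the same pathways, listed by role, were also mixed in direction. After CEES 10 were higher and 9 lower, 20.9% against 33.9% of all genes, and after PAO 1 was higher and 5 lower, 6.59% against 20.4%. Both shares were below the background. Xrcc2, a gene of homologous recombination, was higher by 1.69 ± 0.18 after CEES (edgeR adjusted p = 3.52e-06) and Polk, a polymerase that reads past adducts on guanine, by 0.86 ± 0.10 (8.69e-06). The rise of Xrcc2 was larger than that of any member. Ube2t, the enzyme that attaches ubiquitin to FANCD2, fell by 0.97 (adjusted p = 0.00614), Rbbp8, which starts resection, by 0.44 (0.000737), and Uvssa, a partner of ERCC6, by 0.49 (0.000863). After PAO, Fancb of the Fanconi core fell by 0.82 (0.00809). With the inhibitor after PAO 10 were higher and none lower, 10.99% against 5.96% of all genes, among them Brip1 at 0.76 (0.00265), Bard1, the partner of BRCA1, at 0.75 (0.0227), Clspn at 0.83 (0.00635), Pole at 0.63 (0.0112) and Hmgb1 at 0.39 (0.0108). With the proliferation covariate, which can hardly be told from the inhibitor there, 0 of the 91 were called, and 0.111% of all genes. With the inhibitor after CEES, Xrcc2 fell by 0.60 (0.0456) and Rbbp8 was higher by 0.33 (0.0235). Genes that p53 is known to raise, in a list of 20 without repair genes, were higher in 13 and lower in 1 after CEES, and higher in 14 and lower in none in SNX-5422+CEES against Control. They were higher in 5 and lower in 1 after PAO (median 0.16), and higher in 5 and lower in 2 in SNX-5422+PAO against Control. They summed to 838 to 1039 CPM in Control and 1110 to 1140 CPM in CEES libraries, with none at 0. Their part in the changes of Ercc1, Xrcc2 or Polk was not tested.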

How the data were processed

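Per the labels' protocols, RNA was isolated using the Aurum total RNA kit, and Ribo-Zero Gold took out ribosomal RNA. Per the submitters' processing notes, the tools were bcl2fastq 2.18.0.12, Trim Galore 0.6.7, STAR 2.7.10a and HTSeq 2.0.2, with genome build GRCm39. The authors deposited raw counts per gene, in 1 table. Neither the strand setting nor the annotation release of the counting is stated there, so overlapping genes are uncertain. Of the 45 members 24 share exon bases with another gene, 22 of them on the opposite strand, and 6 over 20% of their length, by a GENCODE annotation of another build (GRCm38), used for names and neighbours. Promoter sequences are RefSeq's (GRCm38.p6).

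The 5 summary entries were left out of library sizes and tests. They held 35.2 to 46.9% (no feature), 2.08 to 2.53% (ambiguous) and 4.78 to 9.76% (multiply aligned) of a library. Symbols matched 52093 of 53700 identifiers. No pair of replicates looked like a duplicate (chi-square per degree of freedom 6.99 to 50.2).

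Calls came from 1 edgeR 4.0.16 quasi-likelihood fit across all genes and 15 libraries (R 4.3.3, TMM factors 0.82 to 1.19, filterByExpr, a mean per group, 10 residual degrees of freedom), with Benjamini-Hochberg adjustment over 22529 genes and calls at an adjusted p under 0.05. SEs were taken from the F statistic. The fit was tested on simulated data with 200 genes changed, the lowest-expressed genes left out. It found 40 to 42% of 1.5-fold and 86 to 95% of 2-fold changes over 4 comparisons. The simulated fits called 131 to 138 genes, where CEES minus Control called 7640, so the adjustment was stricter there. These shares are therefore not the power of the fits reported. Alternatives were DESeq2 1.42.0 and its size factors, upper-quartile and total-count scaling, no filter, only the groups compared, 3 covariates, genes of muscle, pancreas and mitochondrial ribosomal RNA left out, a replicate block, and each library left out in turn. The members and lists were chosen with earlier results of these data known. Mgmt, Mpg, Alkbh2 and Alkbh3 are given throughout. Every called member may be named, with values by library for the 3 of smallest p in each role after PAO or CEES. Of the other repair genes up to 2 raised and 2 lowered per list are named. Reads carry no molecular identifiers, so precision by depth covers counting error only.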

Additional observations from a re-analysis of the deposited data

How the results depend on the processing

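Of the 49 member results called, 7 kept their call in every alternative run: Neil3 in PAO minus Control, Ercc1, Polb and Xrcc1 in CEES minus Control, Ercc1 and Lig3 in SNX-5422+CEES minus Control, and Ercc1 in CEES minus PAO. The other 42 lost it in at least 1, of which 32 without at least 1 library, and the cause was not tested. Depth limits Mgmt and Alkbh2 most.

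In PAO minus Control the 4 members called became 2 with upper-quartile scaling, no filter, the mitochondrial ribosomal RNA covariate, the proliferation covariate or the replicate block, and 9 with total counts. Those fits called 20.8, 12.4, 14.1, 17, 18.5 and 25.6% of all genes, in that order. The 6 other repair genes became 23 with total counts, 10 with the DESeq2 Wald test and 3 with only the groups compared or the mitochondrial covariate. The Wald test called 22.4% of all genes and the fit of only the groups compared 19%. In CEES minus Control the 13 members became 8 with the muscle and 7 with the proliferation covariate, and the 19 others became 9 with the latter. These 2 fits called 29.7 and 22% of all genes. In SNX-5422+PAO minus PAO the 4 members became 7 with the Wald test, 1 with the muscle and 0 with the proliferation covariate. The 10 others became 3 with total counts, 2 and 0 with those covariates and 6 with the replicate block. The share over all genes was 8.35% with the Wald test, 4.19 and 0.111% with those covariates. It was 8.45% with total counts and 4.88% with the block. In SNX-5422+CEES minus CEES the 1 member became 0 with total counts, only the groups compared or the muscle covariate, and the 2 others became 1 with total counts, only the groups compared or the mitochondrial covariate. All genes were called at 7.93% with total counts and 7.22% with only the groups compared. The muscle and mitochondrial covariates gave 4.8 and 6.56%. In SNX-5422+PAO minus Control the 5 members became 14 with total counts, 1 with only the groups compared, 2 with the mitochondrial covariate, 0 with the muscle or proliferation covariate and 3 with the replicate block. The 12 others became 6 with upper-quartile scaling, 24 with total counts, 5 with no filter, 2 with only the groups compared or the mitochondrial covariate, and 0 with the muscle or proliferation covariate. In SNX-5422+CEES minus Control the proliferation covariate left 2 of 12 members and 1 of 10 others, and 8.32% of all genes against 22.3%. In CEES minus PAO the 10 members became 20 with total counts, 6 with no filter, 4, 3 and 1 with the mitochondrial, muscle and proliferation covariates and 5 with the replicate block, and the 13 others became 48 with total counts and 6, 4 and 1 with those covariates. Total counts called 34.9% of all genes, no filter 11.5%, those covariates 6.13, 11.3 and 5.18%, and the block 16.8%. For the difference of the inhibitor effects the 0 members became 1 with no filter or the muscle covariate and 2 with the Wald test, and the 0 others became 2 with no filter or the Wald test. No filter, the muscle covariate and the Wald test called 2.32, 2.03 and 2.79% of all genes. The proliferation mean did not overlap between the groups compared, except in PAO minus Control. Its fits can hardly tell proliferation from treatment.

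Leaving out each library in turn gave, in the order of comparisons above, 1 to 4, 6 to 13, 3 to 7, 0 to 1, 1 to 6, 5 to 14, 4 to 10 and 0 to 1 members, and 2 to 8, 13 to 25, 2 to 17, 0 to 2, 1 to 15, 4 to 13, 7 to 17 and 0 to 3 others. The shares over all genes were 12.7 to 21.3, 26.7 to 34.2, 2.43 to 6.93 and 3.48 to 7.88% in the first 4 comparisons. In the rest they were 10.5 to 21.7, 14.1 to 23.4, 12.2 to 19.3 and 0.177 to 1.75%.

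Signs were followed for the 49 called results and for the uncalled ones of Mgmt, Alkbh2, Alkbh3 and Mpg, and turned in 56 fits, 3 of them of a called result. Other uncalled members were not followed. With the muscle covariate Alkbh2 became 0.56 in CEES minus Control, -1.24 and -0.59 for the inhibitor after PAO and after CEES, -1.48 and -0.031 in the inhibitor groups against Control and 0.81 in CEES minus PAO. Alkbh3 became 0.21 in CEES minus Control, -0.22 for the inhibitor after CEES, -0.25 and -0.0035 in the inhibitor groups against Control and 0.026 in CEES minus PAO. Mpg became 0.0077 for the inhibitor after CEES and Ddb1 -0.019 in SNX-5422+PAO minus Control. With the proliferation covariate Alkbh3 became 0.018 in CEES minus Control and 0.18 for the inhibitor after PAO, Brca1 -0.091 in SNX-5422+CEES minus Control, Alkbh2 0.32 in CEES minus PAO and Mgmt -0.18 in the difference of the inhibitor effects. With the mitochondrial covariate Alkbh2 became 0.073 in PAO minus Control, Alkbh3 0.016 for the inhibitor after PAO and Mpg 0.19 in CEES minus PAO. With total counts Alkbh3 became 0.021 in CEES minus Control, -0.14 in SNX-5422+PAO minus Control and 0.013 in CEES minus PAO, Mgmt -0.10 for the inhibitor after PAO, Alkbh2 -0.32 in SNX-5422+PAO minus Control and 0.020 in CEES minus PAO, Mpg 0.16 and Rad23b 0.054 in CEES minus PAO. Alkbh2 in SNX-5422+PAO minus Control, at 0.0063 in the fit reported, became -0.072 with upper-quartile scaling, -0.0025 with no filter, -0.011 with only the groups compared and -0.0039 without the marker genes, and Alkbh3 became 0.0043 for the inhibitor after PAO with only the groups compared. Leaving out 1 library moved Alkbh2 between -0.32 and 0.033 and Mpg between -0.23 and 0.13 in PAO minus Control, and Alkbh3 between -0.18 and 0.032 in CEES minus Control. For the inhibitor after PAO it moved Mgmt between -0.22 and 0.31, Alkbh2 between -0.19 and 0.55 and Alkbh3 between -0.13 and 0.12, and after CEES Mgmt between -0.018 and 0.46 and Mpg between -0.13 and 0.14. It moved Alkbh2 between -0.37 and 0.37 in SNX-5422+PAO minus Control, Mpg between -0.32 and 0.035 in CEES minus PAO, and Mgmt between -0.13 and 0.43 in the difference of the inhibitor effects.

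Replicate numbers did not pair the libraries. After each group's mean log2 CPM was subtracted, same-numbered libraries had correlations of -0.104 to 0.103 over 18 pairs, 1 of them over 0.1. For 7 of 12 libraries the mean correlation with same-numbered libraries of other groups was above that with differently numbered ones. In the replicate block fit of those 12 libraries, Alkbh2 in SNX-5422+PAO minus Control was -0.0035, and the member counts were 2 (PAO), 9 (CEES), 4 (the inhibitor after PAO), 3 and 5 as above. That fit called 18.5, 32.3, 4.88, 16.7 and 16.8% of all genes in the same order. No paired analysis was possible because the SNX-5422+CEES titles all carry the same number, for the comparisons with that group.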
